A study of Gallus gallus with 6 samples.

Results

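The tight junction and adherens junction genes of the chick auditory epithelium were taken from the gene table by symbol. The rule took every claudin with a number (CLDN), the zonula occludens scaffolds (TJP), the alpha and delta catenins, the nectins, and the single genes OCLN, MARVELD2, MARVELD3, F11R, CGN, CDH1, CDH2, CDH4, PARD3, PARD6B, AFDN and JUP. It found 42 of 25619 rows. Of these, 30 had a mean of at least 1 FPKM (reads scaled to gene length and by a factor per library) and were tested. They were measured in 6 bulk RNA-seq libraries of the basilar papilla, the hearing epithelium of birds, from cochlear ducts of chicks at post-hatch day 1. The ducts were kept as explants with 1% serum and given streptomycin (SM), an aminoglycoside toxic to hair cells, for 48 h. Of the libraries labelled day 3, 3 were SM controls and 3 were SM plus BQ788, an inhibitor of the type B endothelin receptor. The sources used here give no strain, BQ788 dose or number of ducts per library, and every library had received SM, so the loss of hair cells itself was not compared. Whether replicates are separate animals or cultures is not stated in the labels, and p-values therefore reflect the spread among these samples alone, which may be technical.

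Tight junctions seal the space between neighbouring epithelial cells and keep the potassium-rich fluid above the hair cells apart from the fluid below. Claudins form the sealing strands, and scaffolds of the zonula occludens family tie the strands to actin. Adherens junctions hold the cells together through cadherins, whose tails bind catenins, and through nectins, which bind afadin. When a hair cell dies, the supporting cells around it close the gap and build new junctions, and in mammals several of these genes are deafness genes.

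The libraries held 15438305 to 17375656 reads, as recovered from the deposited FPKM values. The epithelium's own markers were present. The supporting cell gene GJB6 lay at 756 to 1219 FPKM, SOX2, the prosensory factor, at 29.3 to 61.05 FPKM, and ATOH1, the factor that starts hair cell formation, at 134 to 176 FPKM. The BQ788 library of replicate 1 stood apart from the others of its group, and a number of results are also given without it.

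None of the 30 junction genes tested passed an adjusted p of 0.05 in limma on log2(FPKM + 1), against 2.99% of all 11857 genes tested. With the replicate number as a block in limma, 2 of 30 passed, CLDN3 and TJP3 (6.67%, against 6.32% of all genes tested). Whether the numbers mark pairs is not stated in the labels. Unadjusted, 5 of 30 had p under 0.05, all lower with BQ788, against 22.7% of all genes tested in either direction and 11.9% lower. The 5 were TJP3, CLDN8, CLDN3, CDH1 and NECTIN3. The groups did not overlap in 6 of 30, these 5 and PARD3, against 29.3% of all genes tested. For each of the 6 the exact permutation test (two-sided) gave p = 0.1. Groups of 3 libraries that do not overlap always give this value, so it adds nothing to the separation. The lower calls were 16.7% of the junction genes, and no difference between these shares and those of the whole table was tested. Without BQ788 replicate 1, 9 of 30 had an unadjusted p under 0.05, against 32.3% of all genes tested. Of these 9, TJP3, CLDN8, CLDN3 and CDH1 were lower (4 of 30, against 15.4%) and 5 were higher (against 16.9%), namely PARD6B, AFDN, PARD3, TJP1 and CLDN1. By sign, 20 of 30 lay below 0 against 46.5% of all genes tested, with a median log2 fold change of -0.05 against 0.02 over all genes. Without BQ788 replicate 1 the junction genes split 16 below and 14 above 0. With any other single library left out, 1 to 21 of the 11857 genes tested passed in limma, against 355 with all libraries. Adjusted p-values from those fits are to be read beside these counts. The log2 fold changes are the BQ788 group minus the controls, and they understate the change of genes with low values.

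**Figure D1:**
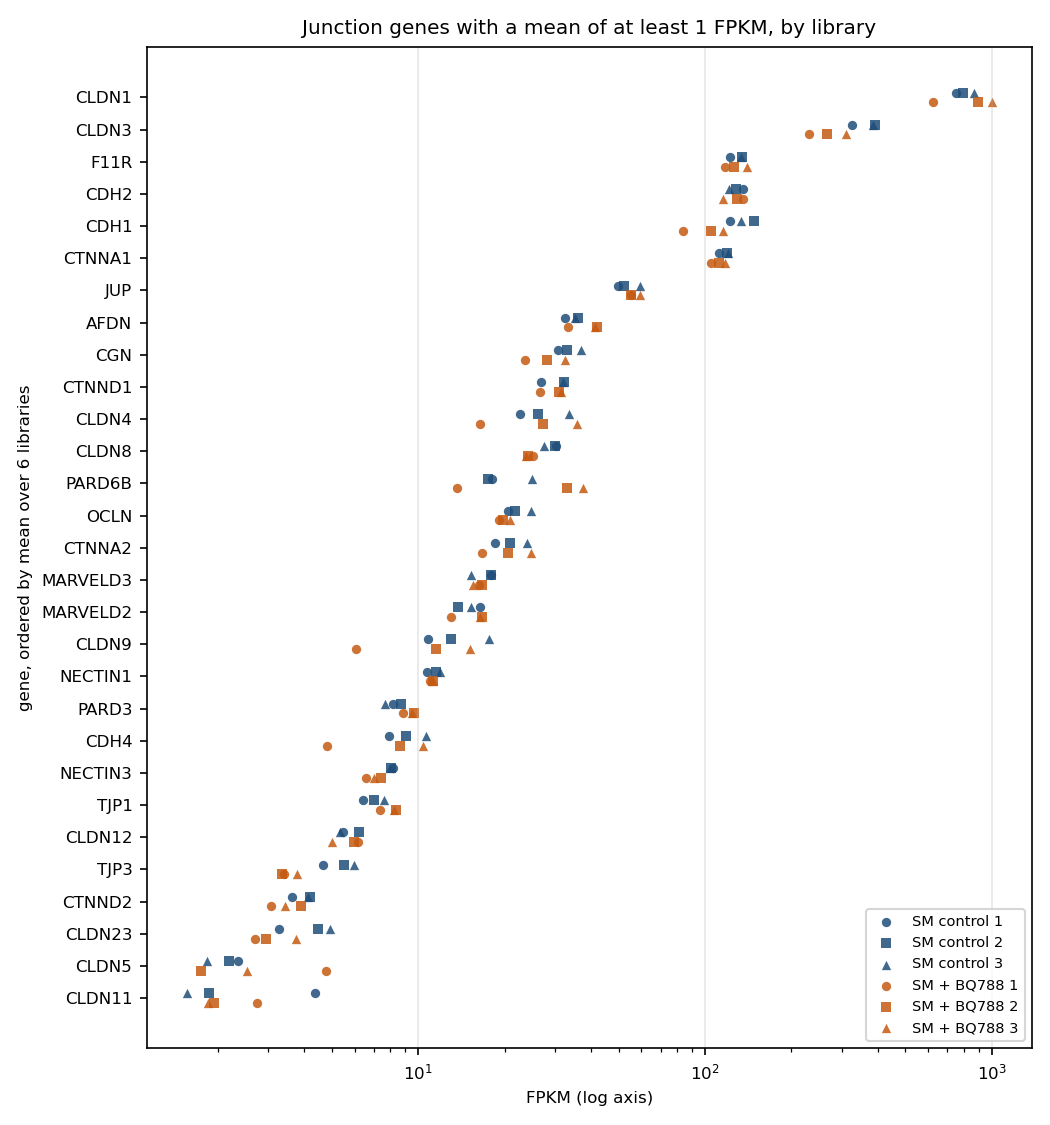
FPKM of 29 of the 30 junction genes tested in each of the 6 libraries, on a log axis, with SM controls in blue and SM plus BQ788 in orange; symbols mark the replicate. CLDN1 and CLDN3 stand above all others, and the circle of BQ788 replicate 1 is the lowest point in 17 of these 29 genes.

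Among the claudins, 2 genes made up nearly all of the family's summed FPKM. Such shares depend on the annotated gene lengths. CLDN8, at 10330 bases, had 3823 to 5530 reads per library, and CLDN3, at 1175 bases, had 4826 to 7247. CLDN1, a barrier-forming claudin of many epithelia (gene 424910, chromosome 9, 13639349 to 13649851, GRCg7b), had the 40th highest mean FPKM of the 25619 rows. Its values were 749.6, 793 and 869.9 FPKM in the controls and 624, 893 and 1001 FPKM with BQ788. The BQ788 libraries lay on both sides of the controls, with a log2 fold change of 0.04 (95% interval -0.39 to 0.46, limma adjusted p = 0.929), and 0.24 without BQ788 replicate 1 (limma adjusted p = 0.145). CLDN3, a second barrier-forming claudin (gene 374029, chromosome 19, 1192757 to 1193931), was at 325, 393 and 386 FPKM in the controls and at 231, 266 and 310.4 FPKM with BQ788. All 3 BQ788 libraries lay below the lowest control. The log2 fold change was -0.45 (SE 0.13, 95% interval -0.76 to -0.15), with a limma unadjusted p of 0.0102 and an adjusted p of 0.108, which misses the threshold. Without BQ788 replicate 1 it was -0.35 (limma adjusted p = 0.0965), and with any other library left out the limma adjusted p lay between 0.106 and 0.298.

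Because both genes are measured in the same library, their ratio does not depend on how libraries are scaled. CLDN3 stood at 0.433, 0.495 and 0.444 of CLDN1 in the controls and at 0.371, 0.297 and 0.310 with BQ788, so the groups did not overlap. Of the summed claudin FPKM, which ran from 921 to 1402 per library, CLDN3 held 29.2% ± 1.49 in the controls and 22.9% ± 1.94 with BQ788 (mean ± SD with n = 3 per group, as for all later values). CLDN1 held 63.9% ± 1.37 and 70.5% ± 2.37, and all other claudins together 6.91% ± 0.125 and 6.58% ± 0.437. For the ratio and both shares the exact two-sided permutation p was 0.1, the smallest that 3 against 3 libraries allow, and 0.22 adjusted over the 11 sums, shares and ratios computed. These quantities were chosen with the values in view.

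CLDN8, a claudin of tight epithelia such as kidney collecting duct in mammals (gene 427974, chromosome 1, 104497752 to 104514022), was at 30.2, 30.02 and 27.5 FPKM in the controls and at 25.1, 24.2 and 23.8 FPKM with BQ788. Both groups were narrow and did not overlap. Its log2 fold change was -0.25 (SE 0.06, limma adjusted p = 0.0816), and without BQ788 replicate 1 it was -0.27 with a limma adjusted p of 0.0499. With any other library left out the limma adjusted p lay between 0.135 and 0.253. A neighbouring row, LOC427973, is also described as claudin-8 in the table and lay at 1.10 ± 0.196 and 0.908 ± 0.188 FPKM.

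CLDN4 and CLDN9 lie beside CLDN3 on chromosome 19. The interval of CLDN9 (1197015 to 1204203) encloses that of CLDN4 (1199819 to 1201186) on the same strand, so the split of reads between them is uncertain. CLDN4 was at 22.6, 26.1 and 33.7 FPKM in the controls and at 16.5, 27.3 and 35.9 FPKM with BQ788. CLDN9, whose loss deafens mice, was at 10.8, 13.1 and 17.7 FPKM and at 6.06, 11.5 and 15.1 FPKM. In both genes BQ788 replicate 1 was the lowest of the 6 libraries and the other libraries of the group lay within or near the control range. Their intervals were correspondingly wide, -0.77 to 0.58 for CLDN4 and -1.13 to 0.38 for CLDN9 on the log2 scale. The log2 fold change was -0.09 for CLDN4 and -0.38 for CLDN9, and without BQ788 replicate 1 it was 0.20 and -0.04.

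The remaining claudins tested were low. CLDN12 was at 5.66 ± 0.472 and 5.72 ± 0.619 FPKM, and CLDN23 at 4.23 ± 0.855 and 3.13 ± 0.546 FPKM. CLDN5, the chief claudin of blood vessel endothelium, was at 2.35, 2.18 and 1.83 FPKM in the controls and at 4.76, 1.75 and 2.54 FPKM with BQ788, so a single library carried the higher mean. Its log2 fold change was 0.30 with BQ788 replicate 1 and 0.00 without it. Of 10 endothelial markers 6 were also highest in that library, against 21.6% of all genes tested. Among the 6 were FLT1 (2.89 FPKM), KDR (2.12 FPKM) and CDH5 (0.568 FPKM), and only FLT1 had a mean high enough to be tested. The most abundant of the markers, EGFL7 (18.8 FPKM) and PECAM1 (8.76 FPKM), lay below every control in BQ788 replicate 1. The part of endothelium in the CLDN5 value was not tested. CLDN11, found in myelin and in the basal cells of the mammalian stria vascularis, was at 4.38 FPKM in SM control replicate 1 and between 1.57 and 2.73 FPKM in the other libraries. Reads per library were 51 to 148 for CLDN5, 40 to 125 for CLDN11 and 52 to 85 for CLDN23, a counting error of up to 15.8%.

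A further 11 claudins had a mean below 1 FPKM and were not tested. CLDN10 (0.294 to 1.31 FPKM), CLDN19 (0.199 to 0.985 FPKM) and CLDN16 (0.114 to 0.392 FPKM) had at least 6 reads in every library. The groups overlapped for CLDN10 and CLDN16. CLDN19 was at 0.427, 0.643 and 0.985 FPKM in the controls and at 0.199, 0.328 and 0.293 FPKM with BQ788. Its groups did not overlap, on only 7 to 31 reads per library. CLDN14, mutated in a human deafness, had 0 to 6 reads, CLDN15 0 to 5 reads and CLDN34 2 to 6 reads. CLDN2, CLDN18, CLDN20 and CLDN25 reached at most 2 reads in any library. CLDN22 had 0 reads in every library, which allows up to 3 reads or 0.0623 to 0.0712 FPKM per library. Its interval lies within that of LOC100858925 on the same strand, which was also at 0, so the assignment of reads there is uncertain. These limits cover counting error only. CTNNA3 (0.0403 to 0.124 FPKM) was the only gene outside the claudins below the filter. CLDN2 and CLDN15, which are among the claudins of leaky or cation-selective junctions, were therefore at or near the detection limit in both groups.

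Of the other membrane proteins of the tight junction, none differed beyond the spread between libraries. F11R, the junctional adhesion molecule A (gene 100036512, chromosome 25), had the highest FPKM of these. This ranking depends on the annotated lengths. The F11R row has 703 bases and 1465 to 1535 reads per library, against 2303 bases and 746 to 903 reads for OCLN. F11R was at 122, 135 and 134 FPKM in the controls and 117, 126 and 141 FPKM with BQ788. The groups overlapped, and the 95% interval of the log2 fold change ran from -0.23 to 0.17. The F11R interval overlaps 4 other genes in the table, among them DCAF8 on the opposite strand, so its reads may be shared. OCLN, occludin, was at 22.3 ± 2.11 and 19.9 ± 0.888 FPKM (-0.15, limma adjusted p = 0.309). MARVELD2, or tricellulin, seals the points where 3 cells meet, and its mutations cause human deafness. It was at 16.4, 13.8 and 15.3 FPKM in the controls and at 13.0, 16.7 and 16.5 FPKM with BQ788, with an interval from -0.26 to 0.29. MARVELD3, a related protein of the strand, was at 17.0 ± 1.57 and 16.2 ± 0.590 FPKM.

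The log2 fold changes of the scaffold genes differed in sign, and none passed an adjusted p of 0.05 in limma on log2(FPKM + 1). TJP3, the scaffold ZO-3 of epithelial tight junctions (gene 420070, chromosome 28, 1405755 to 1415606), had the smallest p of all junction genes. It was at 4.64, 5.495 and 5.98 FPKM in the controls and at 3.39, 3.35 and 3.79 FPKM with BQ788. Every BQ788 value lay below every control value, on 346 to 579 reads per library. The log2 fold change was -0.49 (SE 0.10, 95% interval -0.74 to -0.25), with a limma adjusted p of 0.0572. In limma voom on the recovered reads it was -0.60 with an adjusted p of 0.0481, the only call among the 30 genes with that tool, which called 3.10% of all genes tested. Leaving out 1 library at a time gave values from -0.58 to -0.43, with a limma adjusted p of 0.0525 without BQ788 replicate 1 and between 0.109 and 0.202 without any other.

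TJP1, which encodes the main scaffold ZO-1, was at 6.40, 7.04 and 7.61 FPKM in the controls and at 7.34, 8.39 and 8.25 FPKM with BQ788 (0.17, limma adjusted p = 0.302). Its interval lies within that of MPHOSPH10 on the same strand. The ratio of TJP3 to TJP1 was 0.725, 0.781 and 0.785 in the controls and 0.462, 0.399 and 0.459 with BQ788, a drop in mean from 0.764 ± 0.0335 to 0.440 ± 0.0354. The gap between the groups was several times the spread within them, while the exact permutation p stayed at its lower limit of 0.1 (0.22 adjusted over the 11 quantities). This pair was chosen with the values in view, and TJP3 had the smallest p of all junction genes. The width of the gap is therefore no separate support.

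CGN, or cingulin, links the scaffolds to actin and myosin. It was at 30.7, 33.1 and 36.9 FPKM in the controls and 23.6, 28.2 and 32.5 FPKM with BQ788 (-0.26, limma adjusted p = 0.278), with overlapping groups, and without BQ788 replicate 1 the difference was -0.14. PARD3, a polarity protein that places the junction along the side of the cell, was the only gene of the 30 whose BQ788 values all lay above the controls. It was at 8.16, 8.73 and 7.67 FPKM in the controls and 8.83, 9.65 and 9.49 FPKM with BQ788. This difference was small, 0.17 on the log2 scale (SE 0.07, limma adjusted p = 0.233), against 15.2% of all genes tested with all BQ788 values higher.

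PARD6B, a partner of PARD3 in the apical polarity complex (gene 419352, chromosome 20, 13805500 to 13821482), showed the widest spread. It was at 18.2, 17.6 and 24.9 FPKM in the controls and at 13.7, 33.1 and 37.6 FPKM with BQ788. In BQ788 replicate 1 it was the lowest of the 6 libraries and in the other 2 BQ788 libraries it was the highest. Over all libraries the log2 fold change was 0.36 (95% interval -0.52 to 1.23, limma adjusted p = 0.612). Without BQ788 replicate 1 it was 0.79 with a limma adjusted p of 0.0362, and without any other library it lay between 0.09 and 0.51 with a limma adjusted p of at least 0.558. In that fit 2 of 30 junction genes passed, PARD6B higher and CLDN8 lower, against 11.1% of all genes tested.

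**Figure D2:**
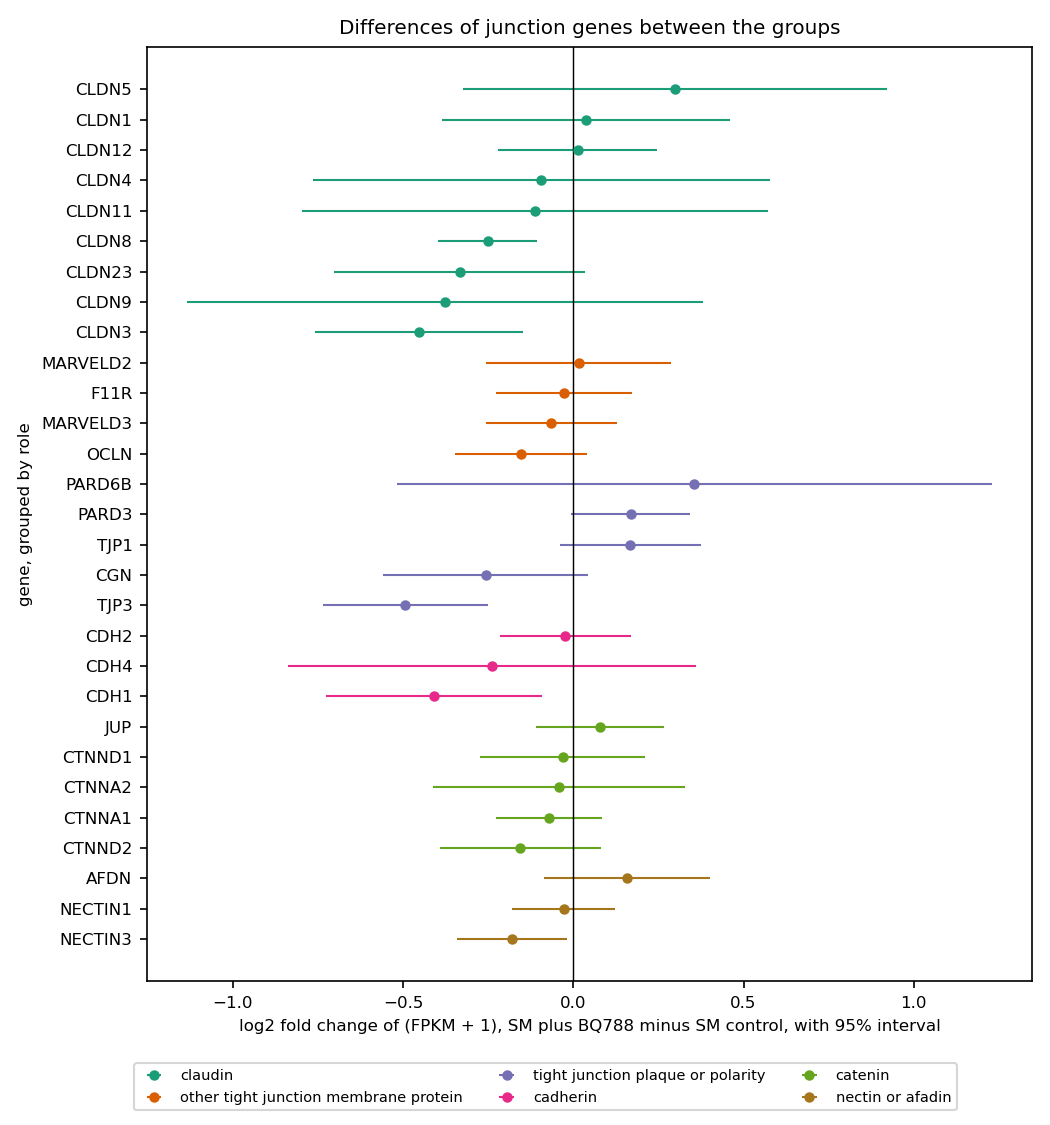
Log2 fold change of 29 of the 30 junction genes on the log2(FPKM + 1) scale, BQ788 group minus control group, with 95% intervals from limma, coloured by role. The intervals of TJP3, CLDN3, CDH1, CLDN8 and NECTIN3 lie below 0, PARD6B and CLDN9 have the widest, and none of the 30 passed after adjustment over all genes.

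Of the cadherins taken by the rule, CDH1 and CDH2 were abundant. CDH1, or E-cadherin (gene 415860, chromosome 11, 18517669 to 18526385), was at 122, 148 and 133 FPKM in the controls and at 83.7, 105 and 116 FPKM with BQ788. The highest BQ788 library lay just below the lowest control. Its log2 fold change was -0.41 (SE 0.13, 95% interval -0.73 to -0.09), with a limma unadjusted p of 0.0190 and an adjusted p of 0.139. Without BQ788 replicate 1 it was -0.28 (limma adjusted p = 0.109), and without any other library the limma adjusted p lay between 0.142 and 0.355. CDH2, or N-cadherin (gene 414745, chromosome 2, 104411911 to 104526394), was at 136, 128 and 122 FPKM and at 136, 129 and 115 FPKM. The values of the groups lay on top of each other, with an interval from -0.22 to 0.17. The ratio of CDH1 to CDH2 was 0.897, 1.153 and 1.09 in the controls and 0.617, 0.815 and 1.00 with BQ788, which overlapped (exact permutation p = 0.2). CDH4, or R-cadherin, was lower, at 7.92, 9.05 and 10.7 FPKM and at 4.80, 8.61 and 10.4 FPKM, with only BQ788 replicate 1 below the control range. Its log2 fold change was -0.24 with that library and 0.04 without it.

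The catenins that bind cadherin tails differed little between the groups. CTNNA1, the epithelial alpha catenin that couples cadherins to actin, was at 112, 119 and 120.04 FPKM in the controls and 105, 112 and 117 FPKM with BQ788. Its interval, -0.23 to 0.08, was among the narrowest of the 30 genes. CTNNA2, the alpha catenin first known from nerve cells, was at 21.2 ± 2.70 and 20.7 ± 4.07 FPKM, and per library it stood at 0.159 to 0.211 of CTNNA1. CTNND1, the delta catenin that stabilises cadherins at the membrane, was at 30.3 ± 3.11 and 29.6 ± 2.70 FPKM. CTNND2, a relative known mainly from neurons, was at 3.98 ± 0.313 and 3.47 ± 0.419 FPKM. JUP, or plakoglobin, which serves both adherens junctions and desmosomes, was at 53.7 ± 4.90 and 56.7 ± 2.43 FPKM (0.08, limma adjusted p = 0.604). The groups overlapped in each of these 5 genes.

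In the mouse cochlea nectin-1 of hair cells and nectin-3 of supporting cells bind each other and help set the chequerboard of the cell types. NECTIN1 was at 10.8, 11.6 and 11.9 FPKM in the controls and 10.97, 11.3 and 11.2 FPKM with BQ788, with an interval from -0.18 to 0.12. NECTIN3 (gene 418415, chromosome 1, 88441679 to 88503954) was at 8.17, 8.04 and 7.99 FPKM in the controls and 6.58, 7.42 and 7.03 FPKM with BQ788. The controls of NECTIN3 were nearly equal and the BQ788 values all lay below them, and the log2 fold change was -0.18 (SE 0.07, limma unadjusted p = 0.0341, adjusted p = 0.183). It was -0.14 without BQ788 replicate 1 (limma unadjusted p = 0.0771). The ratio of NECTIN1 to NECTIN3 did not overlap between the groups, at 1.42 ± 0.0907 and 1.60 ± 0.0739, with an exact permutation p of 0.1 (0.22 adjusted over the 11 quantities). AFDN, or afadin, the actin-binding partner of nectins, was at 32.4, 36.0 and 35.2 FPKM in the controls and 33.2, 42.0 and 41.2 FPKM with BQ788 (0.16, limma adjusted p = 0.409), and without BQ788 replicate 1 the difference was 0.26 (limma adjusted p = 0.0564). No row is named NECTIN2 or NECTIN4. A row described as nectin-4-like by its older name, LOC101750739, was at 1.69 ± 0.0447 and 1.37 ± 0.107 FPKM.

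**Figure D3:**
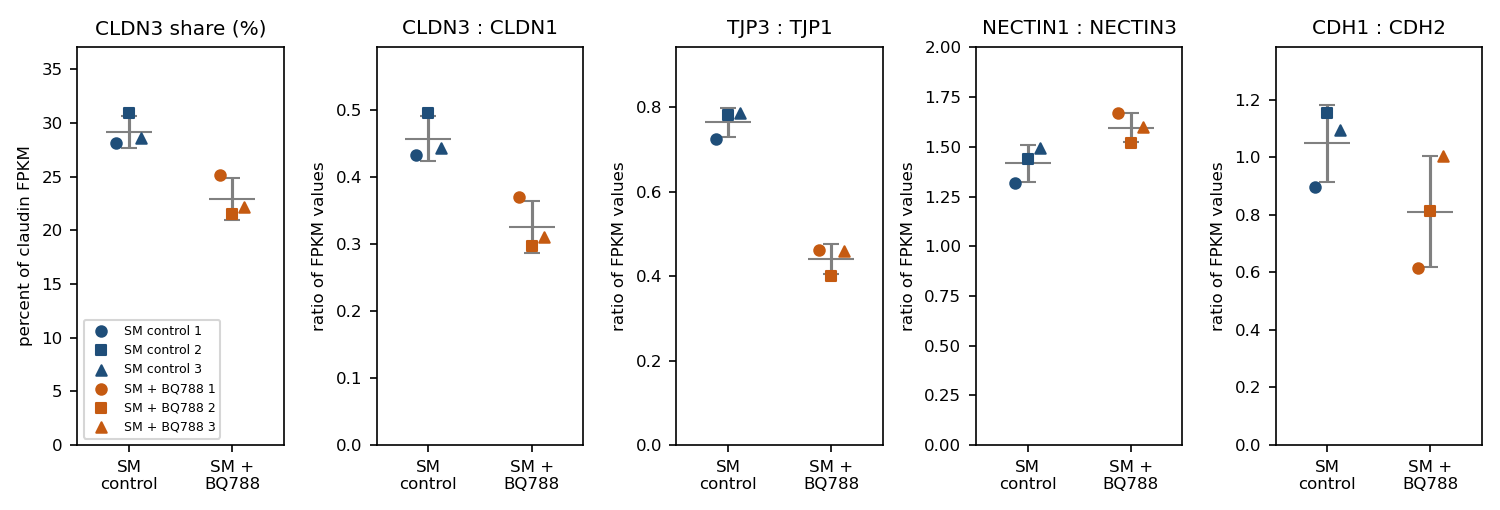
Within-library share of CLDN3 among all claudin FPKM and 4 ratios of FPKM values, per library, with the mean and SD of each group (n = 3) in grey and axes from 0. The groups do not overlap for CLDN3, CLDN3 to CLDN1, TJP3 to TJP1 and NECTIN1 to NECTIN3, and they overlap for CDH1 to CDH2.

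Much of the spread among the junction genes came from 1 library. BQ788 replicate 1 held the lowest value of the 6 libraries in 18 of 30 junction genes, against 21.4% of all genes tested. Its median deviation from the gene means was -0.17 on the log2 scale over the junction genes, while over all genes tested it was 0.00. In the other 5 libraries the median over the junction genes lay between -0.06, in SM control replicate 1, and 0.09, in SM control replicate 3. The genes lowest in that library came from every role, among them CLDN1, CLDN4, CDH1, CDH4, PARD6B and CGN, whereas CLDN5 was highest there. The same library had the highest values of the fibroblast genes DCN (44.8 FPKM, against 13.4 to 26.9 FPKM elsewhere), LUM (29.1 FPKM, against 6.58 to 17.6 FPKM) and PDGFRA (10.97 FPKM, against 1.95 to 5.79 FPKM). COL1A1, COL1A2, PRRX1, PDGFRB and TWIST2 were also highest there, as were 21.6% of all genes tested. Other markers of the list were not. VIM (296 FPKM), COL3A1 (8.87 FPKM) and COL6A2 (8.25 FPKM) lay below every control in that library, and FBLN1, COL6A1 and COL6A3 were highest in SM control replicate 1. The whole list of 14 fibroblast markers summed to 616 to 726 FPKM in the controls. It summed to 657 FPKM in BQ788 replicate 1 and to 455 and 488 FPKM in the other BQ788 libraries. VIM was the largest single part of each sum, at 389 to 436 FPKM in the controls and 296 to 310 FPKM with BQ788. The sums therefore do not show how the other markers of the list stood. In bulk samples fewer cells of a type and less RNA per cell cannot be told apart, and the part of fibroblasts in the junction gene values was not tested.

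**Figure D4:**
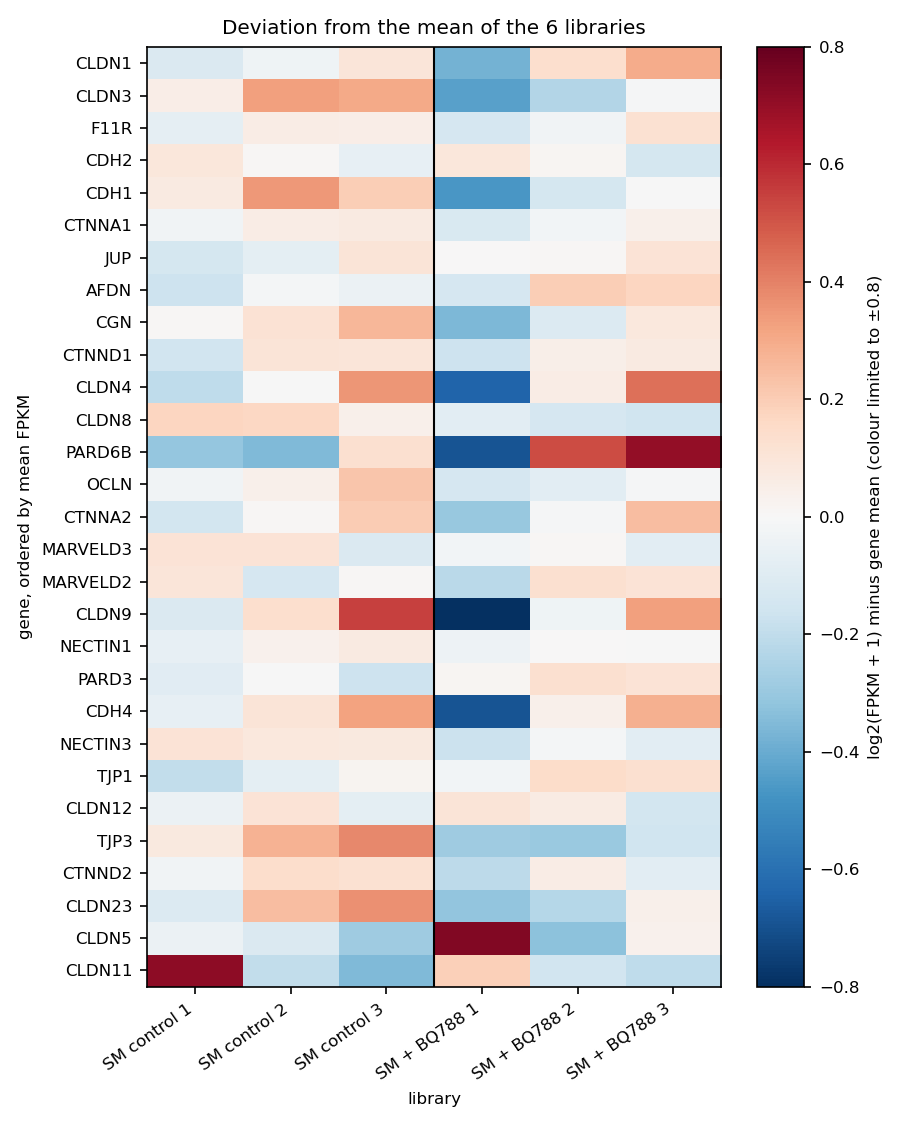
Deviation of log2(FPKM + 1) from the mean of the 6 libraries for 29 of the 30 junction genes, blue where lower and red where higher, with colour limited to 0.8 on either side. The column of BQ788 replicate 1 is mostly blue, and CLDN3, CLDN8, TJP3, CDH1 and NECTIN3 are lower in all 3 BQ788 columns than in any control column.

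Of 12 hair cell markers 11 were tested and 0 passed in limma. Their median log2 fold change was -0.36, and 8 had an unadjusted p under 0.05, all lower, against the 11.9% of all genes tested. The values ran from -0.75 for FSCN2 to -0.07 for ATOH1 and -0.01 for CIB2. With limma voom 2 passed, FSCN2 and ESPN, against the 3.10% of all genes tested. They summed to 270 to 311 FPKM in the controls and to 236 to 258 FPKM with BQ788, and none of the 12 was at 0 in any library. Of 10 endothelial markers 3 were tested and their sums were 35.5 to 38.5 and 27.1 to 35.2 FPKM, with VWF, TEK, TIE1 and CDH5 below 0.6 FPKM in every library. For the calls that follow, 2.24% of all genes tested passed in limma as lower. Schwann cell and neuron markers summed to 184 to 197 and 149 to 180 FPKM, led by SOX10, and 3 of 7 tested fell, namely GAP43, NEFL and NEFM, while STMN2 was at 0 in SM control replicate 3 and BQ788 replicates 2 and 3. Cartilage markers summed to 252 to 294 and 136 to 164 FPKM, and 3 of 5 tested fell, the collagen IX genes COL9A1, COL9A2 and COL9A3. The 5 tested were all collagen genes. The cartilage markers HAPLN1 (0.234 to 0.787 FPKM), ACAN (0.0682 to 0.446 FPKM) and MATN1 (0 to 0.0196 FPKM) were too low to be tested. Supporting cell markers summed to 1724 to 2142 and 1522 to 2139 FPKM, and FGFR3 fell among 10 tested. By sign these 10 split 5 above and 5 below 0. At an unadjusted limma p under 0.05, 2 were higher (LFNG and JAG1) and 2 lower (FGFR3 and TECTA). Over all genes tested these shares were 10.8% higher and 11.9% lower. Of the fibroblast markers VIM fell among 14 tested, and of the melanocyte markers SLC45A2 fell among 4 tested. MLANA was at 2.83 ± 0.643 and 0.893 ± 0.490 FPKM (-1.04, limma adjusted p = 0.0673) and PMEL at 1.08 ± 0.378 and 1.02 ± 0.680 FPKM (-0.07). MITF went the other way, at 1.15 ± 0.0876 and 1.32 ± 0.112 FPKM (0.11, limma adjusted p = 0.517), and its groups did not overlap. Blood and immune markers summed to 59.5 to 79.2 and 50.9 to 81.2 FPKM, with the globin gene HBAD at 0 in every library, and melanocyte markers to 13.3 to 13.6 and 4.31 to 6.81 FPKM. The part of any of these cell types in the values of CLDN3, CDH1, TJP3, CLDN8 and NECTIN3 was not tested.

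Other genes of the same structures were taken from 6 lists with 127 symbols, of which 104 had a row and 86 were tested. In these lists 1 gene passed an adjusted p of 0.05 (1.16%, against 2.99% of all genes tested) and 11 had an unadjusted p under 0.05 (12.8%, against 22.7%). The gene that passed was CADM1, a nectin-like adhesion molecule, which was also the only call of limma voom in these lists. It rose from 17.9, 17.0 and 16.1 FPKM in the controls to 25.4, 24.7 and 23.3 FPKM with BQ788, 0.50 on the log2 scale (SE 0.07, limma adjusted p = 0.0283). BQ788 replicate 1 did not stand apart in this gene, and without it the value was 0.48 (limma adjusted p = 0.0237). When any other library was left out, the value stayed between 0.47 and 0.54 while the limma adjusted p rose to between 0.0570 and 0.135. In those fits 1 to 21 of the 11857 genes tested passed, against 355 with all libraries.

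The rest of the adherens junction list gave no further call among 28 tested genes. LIMD1, a LIM protein of the junction, was at 39.2 ± 3.61 and 32.4 ± 1.60 FPKM (-0.26), SHROOM2, an apical actin organiser, at 12.1 ± 0.268 and 13.5 ± 0.387 FPKM (0.14), CTNNAL1 at 25.6 ± 2.65 and 21.5 ± 2.09 FPKM (-0.24) and MYL9, a myosin light chain, at 76.6 ± 14.2 and 51.8 ± 16.0 FPKM (-0.59, limma adjusted p = 0.237). Among 22 other tight junction genes tested, 0 passed in limma and 3 had an unadjusted p under 0.05, against 22.7% of all genes tested. JAM2, a junctional adhesion molecule, was at 2.20 ± 0.256 and 1.41 ± 0.140 FPKM (-0.41, limma adjusted p = 0.0860). ARHGAP17, a GTPase regulator of junctions, was at 35.3 ± 1.81 and 40.8 ± 1.78 FPKM, and the scaffold gene MAGI2 at 4.41 ± 0.448 and 5.32 ± 0.330 FPKM. MARVELD1 was at 18.9 ± 0.787 and 16.3 ± 2.13 FPKM, with overlapping groups.

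Of 13 polarity genes tested, 0 passed in limma and 3 had an unadjusted p under 0.05, against 22.7% of all genes tested. STK11, a kinase that sets epithelial polarity, was at 17.0 ± 0.487 and 13.2 ± 1.24 FPKM (-0.34, limma adjusted p = 0.0732). The relatives of the 2 polarity members described above had values above 0, with PARD6G at 3.57 ± 0.487 and 4.73 ± 0.301 FPKM (0.33, limma adjusted p = 0.124) and PARD3B at 6.85 ± 0.311 and 7.90 ± 0.412 FPKM (0.18, limma adjusted p = 0.195). For PARD3, PARD3B and PARD6G all 3 BQ788 values lay above all controls, whereas PARD6B was lowest of the 6 libraries in BQ788 replicate 1. PARD3B and PARD6G were named by their small p, so their separation was selected from these data. Of the 13 polarity genes tested, 3 lay wholly above the controls (against 15.2% of all genes tested) and 1 wholly below (against 14.1%). By sign, 7 lay above 0 and 6 below. CRB2, a crumbs protein of the apical membrane, was at 1.36 ± 0.428 and 0.816 ± 0.261 FPKM.

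Of 5 other cadherins tested, 0 passed in limma and 1 had an unadjusted p under 0.05, against 22.7% of all genes tested. CDH13, a cadherin anchored without a cytoplasmic tail, was at 3.65, 4.49 and 5.10 FPKM in the controls and 2.75, 2.68 and 3.01 FPKM with BQ788 (-0.50, limma adjusted p = 0.0748). CDH8 (-0.15), CDH20 (-0.19) and CDH11 (-0.08) had overlapping groups. The tested gene that the naming rule left out was the only 1 of the 5 above 0. That gene held most of the list's sum, which was 217 to 234 FPKM in the controls and 218 to 231 FPKM with BQ788. Of 6 desmosome genes tested, 0 passed in limma and 1 had an unadjusted p under 0.05, against 22.7% of all genes tested. That gene, PKP3, a plakophilin, was at 8.68 ± 0.584 and 6.64 ± 0.850 FPKM (-0.35, limma adjusted p = 0.117) while PKP2 was at 7.31 ± 0.900 and 6.76 ± 1.85 FPKM. DSG2, the desmosomal cadherin, was far more abundant, at 131.5 ± 12.7 and 137 ± 26.3 FPKM, and PKP4 was at 10.5 ± 0.334 and 10.5 ± 0.241 FPKM.

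Of 12 tested transcription factors known to repress or activate junction genes, 0 passed in limma or had an unadjusted p under 0.05. Over all genes tested 2.99% passed and 22.7% had an unadjusted p under 0.05. SNAI1, a repressor of CDH1 and of claudin genes in other epithelia, was at 1.68, 1.06 and 1.44 FPKM in the controls and at 3.68, 1.79 and 1.88 FPKM with BQ788. The groups did not overlap and the highest value was again in BQ788 replicate 1. Its log2 fold change was 0.49 (SE 0.22, limma adjusted p = 0.244), and 0.25 without that library. GRHL2, an activator of epithelial junction genes, was at 11.8 ± 0.564 and 13.5 ± 1.16 FPKM (0.18, limma adjusted p = 0.247). TCF3 was at 14.7 ± 1.49 and 13.3 ± 1.27 FPKM, and TWIST1, a mesenchymal factor, at 3.62 FPKM in BQ788 replicate 1 and between 0.262 and 1.67 FPKM elsewhere.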

How the data were processed

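The authors deposited 1 table of FPKM values (reads per gene divided by its length and by a factor per library) for 6 samples. The sample titles give group and replicate number. Thermolysin (500 µg/ml) freed the epithelium, and NEBNext Ultra II libraries were made from 400 ng of RNA, per the labels' protocols. The submitters' processing notes name fastp and the build GRCg7b. The sources used here name no aligner, counter or strand setting.

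Multiplied by gene length, 100% of FPKM values were whole multiples of 1 step per library within 0.01 of a read, which gave reads per gene (15438305 to 17375656 per library). Median-of-ratios factors of the FPKM columns were all 1.00, so the columns already carry this scaling and applying it again changes nothing. Within groups, recovered reads differed by more than counting noise (chi-square per degree of freedom 6.36 to 59.7), and the libraries were treated as separate samples.

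Groups were compared with limma 3.58.1 (R 4.3.3, linear model of group, eBayes with trend, two-sided) on log2(FPKM + 1). The 11857 genes averaging 1 FPKM or more were tested, and p-values were adjusted over all of them by Benjamini-Hochberg with a threshold of 0.05. Single ratios got an exact two-sided permutation test. The test was checked on simulated data whose planted changes were larger than those of the junction genes and in which no library stood apart. The check therefore does not tell how well differences as small as these are found. Genes were named by rule: members by their values, and per list those past the threshold and up to 4 more by p. Members, lists, ratios and rules were chosen with earlier results of these data known. Alternatives were other pseudocounts (0.1, 0.5), filters (none, a mean of 5 FPKM), scalings, robust eBayes, a replicate block, limma voom on recovered reads, and leaving out each library. Of the 30 junction genes tested, 29 are shown singly; 1 is in the counts only and is not reported here.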

Additional observations from a re-analysis of the deposited data

How the results depend on the processing

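The count of junction genes past an adjusted p of 0.05 was 0 with pseudocounts of 0.1 and 0.5, without a filter, at a mean of at least 5 FPKM, under both other scalings and with robust eBayes. It was 1 (TJP3) in limma voom and from 0 to 2 when 1 library was left out. Unadjusted, 4 to 9 passed when 1 library was left out, and without BQ788 replicate 1 they were 5 higher and 4 lower. Over all genes the count was 68 without a filter, and it ran from 1 to 1311 when 1 library was left out, highest without BQ788 replicate 1. The related lists then gave 0 to 3 calls. Same-numbered libraries of the groups shared deviations for replicates 1 and 3 (r = 0.50 and 0.57), against -0.48 and -0.53 across these numbers. For replicate 2 r was 0.07, and SM control replicate 2 correlated best with BQ788 replicate 1 (0.12). The labels do not say whether the numbers mark pairs and these values do not settle it, so the main fit leaves the numbers out. With a replicate block 749 genes passed (6.32%), among them 2 junction genes (6.67%: CLDN3, adjusted p = 0.0365, and TJP3, adjusted p = 0.0371); 10 junction genes (33.3%) passed unadjusted against 29.5% of all genes, and 3 genes of the related lists passed. The fold changes can move only under pseudocounts of 0.1 and 0.5, quantile normalization and limma voom, where all 29 junction genes reported singly kept their sign; filters, the block, robust eBayes and median-of-ratios factors of 1.00 leave them as they are, and 5 genes under 5 FPKM leave the test at that filter. With 1 library left out, 11 of these changed sign without a call at either: CLDN1 (-0.10 to 0.24), CLDN4 (-0.34 to 0.20), CLDN11 (-0.32 to 0.22), CLDN12 (-0.036 to 0.091), CDH2 (-0.074 to 0.042), CDH4 (-0.44 to 0.044), CTNNA2 (-0.18 to 0.10), CTNND1 (-0.12 to 0.043), F11R (-0.096 to 0.033), MARVELD2 (-0.048 to 0.13) and NECTIN1 (-0.067 to 0.0015). The cause was not tested.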
